A study of Arabidopsis thaliana with 12 samples.

Results

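The probes described here carry a genomic position in place of a gene: their systematic name is a chromosome with a start and an end, not an AGI locus code, the identifier of an annotated Arabidopsis gene. Of 37478 non-control probes on the array, 8812 (23.5%) were named by position and 26236 by AGI code. Kept were position-named probes that the scanner software marks as well above background on each of the 3 arrays of some group, which left 2327 probes, 26.4% of the position-named set. The same rule kept 21847 AGI-named probes, or 83.3%. The sources used here do not give the build of the positions, no position was set against gene models, and probe sequences were not used.

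Transcript levels were measured on 12 one-colour Agilent arrays of Cy3-labelled total RNA, 3 arrays in each of 4 groups, all of strain Col-0 on solid MS medium. The seedlings were wild-type plants of 14 days with no treatment. The 35S:WIND1 callus came from callus-like plants that express WIND1, an AP2/ERF transcription factor, from the constitutive 35S promoter, also with no treatment. T87 callus, wild type per the labels and grown from the T87 cell line, was kept with 500 nM NAA, and 2,4-D-induced callus, also wild type, was kept with 500 µg/L 2,4-D. Both compounds are synthetic auxins, and callus is a mass of dividing, largely unorganised plant cells. Each array of a group was a different plant or a different callus, and T87 is 1 cell line. Only the 2 auxin calli had an agent in the medium, the labels give no age for any callus, and position on the slide was the same for all arrays of a group and cannot be told apart from it.

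Transcripts outside annotated loci include unannotated exons and untranslated regions, noncoding and antisense RNAs, and transcripts of transposons. Transposons are dense in the heterochromatin around the centromeres (the pericentromere), where DNA methylation keeps most of them silent in Arabidopsis. The pericentromere of chromosome 2 also holds a long insertion of mitochondrial DNA that is nearly identical to the organelle's own genome.

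Levels below are log2 processed signals, with 0 set at each array's 75th percentile. The WIND1 probe (AT1G78080) read 1.20, 1.37 and 1.22 in seedlings, then 3.90, 3.20 and 3.62 in 35S:WIND1 callus, 2.504, 1.95 and 2.36 in T87 callus, while 2,4-D-induced callus had 3.15, 2.74 and 2.70. All arrays of every callus lay above all seedling arrays, and 35S:WIND1 callus was 4.97-fold above seedlings (limma, adjusted p = 1.71e-05). Group means of the 5 photosynthetic markers ran from 1.52 to 7.49 in seedlings, and the lowest, those of CA1 or LHB1B1, were -3.14 for 35S:WIND1, -6.01 for T87 and -6.31 for 2,4-D-induced callus. The highest, those of RBCS1A or LHCA3, were 6.1, 6.5 and 2.3 in the same order, and RBCS1A was not called lower in T87 callus. LHB1B1 was well above background on 2 of 3 T87 arrays and 1 of 3 arrays of 2,4-D-induced callus, and CA1 on 2 of the latter. Of the root markers, CASP1 was lower than in seedlings in all 3 calli, EXPA7 in T87 and 2,4-D-induced callus, and PYK10 in T87 callus. EXPA7 went the other way in 35S:WIND1 callus, 2.76-fold above seedlings (limma adjusted p = 0.0239). Of the xylem markers, VND7 was 16.9-fold above seedlings in 35S:WIND1 callus and XCP2 was not called there. In T87 and 2,4-D-induced callus XCP2 was called lower than in seedlings and VND7 was not called. Embryo markers (1.23 and 2.48) and markers of dividing cells (1.22 and 4.17) were highest in T87 callus, where 1 of 2 epidermal markers was on no array well above background. In 2,4-D-induced callus the embryo marker LEC1 was called higher than in seedlings and FUS3 lower. SDC and FWA, repeat-linked genes that DNA methylation silences, were at 3.70 and 3.64 in T87 callus and at -6.39 or below in the other groups. In bulk samples fewer cells of a type and less RNA per cell cannot be told apart, and the part these tissue differences have in the changes below was not tested. On 2,4-D-induced callus replicate 2, the faintest signal well above background was at -5.76, against -6.37 to -6.85 on the other arrays, so this array stands apart for dim probes.

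The share of position-named probes detected did not differ between the 4 groups beyond the spread of their arrays. Over all 8812 probes, 23.6%, 24.7% and 23.6% were well above background in the seedlings, then 27.2%, 22.2% and 27.6% in 35S:WIND1 callus, 21.2%, 24.9% and 24.2% in T87 callus, while 2,4-D-induced callus had 26.8%, 17.2% and 27.3%. The groups overlapped, and the lowest share belonged to 2,4-D-induced callus replicate 2. Means were 23.9% ± 0.620 (SD, n = 3), 25.7% ± 3.01, 23.4% ± 1.95 and 23.8% ± 5.68, with a two-sided exact permutation p of 0.868 over the 4 groups. On single arrays AGI-named probes ranged from 71.7%, on 2,4-D-induced callus replicate 2, to 79.9%, on a seedling array. They were detected at 79.6% ± 0.325, 78.0% ± 1.22, 75.1% ± 1.24 and 74.8% ± 2.78 in the same order (exact permutation p = 0.0179). The gap between the AGI-named and the position-named share was 55.6 percentage points for the seedlings and 52.3, 51.7 and 51.1 for the calli (exact permutation p = 0.103). Adjusted over these 3 tests, the p-values were 0.868, 0.0536 and 0.155. Without 2,4-D-induced callus replicate 2 they were 0.239, 0.0132 and 0.0239, so the call on the AGI-named share and on the gap rests on whether this array is used. For pairs of groups, 3 arrays against 3 cannot give a two-sided exact p below 0.1, and the 6 pairs gave 0.3 to 1 for the position-named share.

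The detected position-named probes were dim. Their mean level over 12 arrays had a median of -5.31 and quartiles of -6.09 and -4.06, against a median of -0.65 for the detected AGI-named probes. Only 56 of 2327 (2.41%) had a mean level above 0, against 40.0% of AGI-named probes. A total of 985 (42.3%) were well above background on all 12 arrays, against 77.4% of AGI-named probes, and 611 (26.3%) met the rule in 1 group alone, against 8.30%. Those just inside the rule, well above background on all arrays of 1 group and on no other array, numbered 139 and had a median level of -5.16 in that group. Just outside it, 522 probes seen on 2 of 3 arrays of their best group had a median of -6.21 there. Correlations across the detected position-named probes between arrays of a group were 0.950 to 0.961 in seedlings, 0.880 to 0.922 in 35S:WIND1 callus, 0.944 to 0.964 for T87 and 0.941 to 0.953 for 2,4-D-induced callus. These arrays share the probe set and its affinities.

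Some features that the rule did not use went with detection. The strands differed little, with 26.1% of probes named on the plus strand and 26.7% on the minus strand detected. Of 97 probes whose position spans over 60 bases, 49 (50.5%) were detected. Probes with a number under 700000 in their name were detected at 45.3% (226 of 499), against 25.3% for the others. Chromosomes 1 to 5 had 29.0%, 28.4%, 24.9%, 22.9% and 25.8% of their probes detected. None of the 8812 probes was named by a position on the chloroplast or mitochondrial genome.

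In a test of any difference among the 4 groups, 1754 of the detected position-named probes (75.4%) passed at an adjusted p under 0.05 (limma, moderated F), against 89.3% of AGI-named probes and 86.9% of all 25598 probes tested. For each pair of groups, calls needed an adjusted p under 0.05 plus a difference of 2-fold or more. A probe that passed the rule through 1 group alone had to be dimmer elsewhere, so these counts describe the probes that passed and not all 8812.

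Against seedlings, 272 position-named probes were called higher and 387 lower in 35S:WIND1 callus, 28.3% in all, beside 31.0% of all probes tested. In T87 callus 437 were higher and 561 lower (42.9%, beside 46.3% of all probes). In 2,4-D-induced callus 446 were higher and 478 lower (39.7%, beside 41.9%). Between calli, 395 were higher and 355 lower in 35S:WIND1 than in T87 callus (32.2%, beside 35.7%). A total of 272 were higher and 276 lower in 35S:WIND1 than in 2,4-D-induced callus (23.5%, beside 27.3%), and 374 were higher and 423 lower in T87 than in 2,4-D-induced callus (34.2%, beside 37.9%). Each share was lower than that of AGI-named probes, which was 31.8%, 47.2%, 42.7%, 36.6%, 28.3% and 38.8% in the same order. Without the chromosome 2 stretch described below, 601, 926, 876, 711, 547 and 754 were called.

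The gap to AGI-named probes was wider at matched level. Among probes with a mean level from -6 to -4, 23.5% of position-named and 49.4% of AGI-named probes were called in 35S:WIND1 callus against seedlings. In T87 callus these shares were 35.3% and 69.5%, and in 2,4-D-induced callus 35.8% and 59.3%. Above a level of -2 the order turned, with 29.0% and 23.9%, 45.4% and 36.5%, and 39.1% and 35.6%, over 207 position-named and 14290 AGI-named probes. Levels are not matched there, since the bin has no upper limit. A mean level above 0 was found for 2.41% of position-named and 40.0% of AGI-named probes. The bin also holds probes of the chromosome 2 stretch, and the order without them was not tested. Among probes measured well above background throughout both groups, 138 position-named probes were higher and 173 lower of 1377 in 35S:WIND1 callus, 205 and 201 of 1264 in T87 callus, and 220 and 91 of 1114 in 2,4-D-induced callus. These are 22.6%, 32.1% and 27.9%, against 27.6%, 39.0% and 37.1% of AGI-named probes under the same limit. This gap was narrower than that among probes at -6 to -4.

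The split between higher and lower calls depended on how arrays were scaled. With arrays centred on their median, the calls against seedlings were 530 higher and 267 lower for 35S:WIND1 callus, 872 and 286 in T87 callus, while 2,4-D-induced callus had 954 and 298. Quantile normalization gave 462 and 281, 785 and 325, and 823 and 332. The authors' deposited values gave 560 and 253, 424 and 575, and 374 and 539. For 35S:WIND1 against T87 callus the splits were 237 and 552 with median centring, 250 and 495 with quantiles and 746 and 213 with the deposited values. Against 2,4-D-induced callus they were 175 and 424, 197 and 378, and 643 and 146. In the same order the splits were 412 and 369, 413 and 354, and 416 and 356 for T87 against 2,4-D-induced callus. Median centring moved the median change of all probes from 0.06 to 0.49 in 35S:WIND1 callus, from -0.04 to 0.82 in T87 callus and from 0.14 to 0.88 in 2,4-D-induced callus. The deposited values moved it to 0.55, -0.07 and -0.03. AGI-named calls against seedlings moved too. Median centring gave 5069 higher and 3299 lower, 9849 and 3980, and 9884 and 3869 of 21847 in the 3 calli. Quantiles gave 3302 and 3972, 5531 and 5217, and 5261 and 4809. The deposited values gave 5549 and 3141, 4380 and 5833, and 3146 and 5651. The dependence on scaling is thus not particular to position-named probes, and it leaves the prevailing direction among those detected unsettled. Of the changes of single probes named below, those that were recomputed kept their call with these 3 scalings except for 6 falls of the chromosome 2 stretch given below; the brightest probes and the groups of neighbours were not recomputed one by one.

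A stretch of chromosome 2 between 3.25 and 3.5 Mb held position-named probes of which nearly every one was detected. It was chosen after values were seen, as the longest run of 50-kb bins that each hold at least 5 probes with at least 80% detected, so its share is a description. Of its 85 position-named probes 83 (97.6%) were detected, against 9 of 25 in the 250 kb on each side and 25.7% of all others. Outside it, 6 single bins of the 773 with at least 5 probes met the same limits. Of the 10 brightest position-named probes on the array, 7 lie in the stretch, as do 11 of the 56 with a mean level above 0.

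Most probes of the stretch were higher in callus than in seedlings. Their median level was -3.97 in seedlings, then -2.69 in 35S:WIND1 callus, -2.18 in T87 callus, while 2,4-D-induced callus had -2.98. Against seedlings, 57 were called higher and 1 lower in 35S:WIND1 callus, with a median log2 change of 1.37, where 12.1% of all probes tested were higher. In T87 callus 65 were higher and 7 lower (median 1.71, beside 20.2% of all probes higher). In 2,4-D-induced callus 47 were higher and 1 lower (median 1.20, beside 18.4%). Within slides 1, 2 and 3, each with 1 array a group, the medians were 1.21, 1.02 and 1.96 in 35S:WIND1 callus, 1.81, 1.80 and 1.68 in T87 callus, while 2,4-D-induced callus had 1.49, 0.71 and 1.27. Between calli, 34 were higher and 9 lower in T87 than in 2,4-D-induced callus, beside 18.9% and 19.0% of all probes. A further comparison, 35S:WIND1 against T87 callus, gave 10 higher and 29 lower (beside 19.5% and 16.2%), and 35S:WIND1 against 2,4-D-induced callus 1 higher and 0 lower (beside 15.9% and 11.4%). The median of 35S:WIND1 against T87 callus was -0.65, -0.94 and 0.10 within the slides, so slide 3 went the other way. With median centring 69, 70 and 68 of the 83 were higher against seedlings in the 3 calli, and with quantiles 62, 70 and 60. With normexp background correction, which adds 50 units to each signal, only 6, 16 and 3 were called higher, with median changes of 0.30, 0.55 and 0.21. Of the AGI-named probes, 1147, 2409 and 1997 were then called higher.

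The brightest position-named probe was A_84_P736313 (chr2:3333828-3333887, plus strand as named). Its levels were 3.76, 3.68 and 3.52 in seedlings, then 3.88, 3.91 and 3.93 in 35S:WIND1 callus, 5.47, 5.24 and 5.14 in T87 callus, while 2,4-D-induced callus had 4.01, 3.599 and 3.42. All T87 arrays lay above all others, and T87 callus was 3.102-fold above seedlings (log2 SE 0.161, limma adjusted p = 1.04e-05). A_84_P719430 (chr2:3298991-3299050) rose in every callus, from 2.78, 2.62 and 2.54 in seedlings to 4.34, 3.89 and 3.94 in 35S:WIND1 callus, 5.58, 5.32 and 5.39 in T87 callus, while 2,4-D-induced callus had 4.05, 3.80 and 3.61. The seedlings overlapped no callus and T87 overlapped no other group, and the folds over seedlings were 2.66, 6.89 and 2.26 (limma adjusted p = 7.74e-05, 3.603e-07 and 0.000139). A_84_P711604 (chr2:3487144-3487203) read -3.93, -3.88 and -4.04 in seedlings, then -2.21, -1.91 and -1.56 in 35S:WIND1 callus, 2.14, 2.14 and 2.38 in T87 callus, while 2,4-D-induced callus had -1.84, -2.36 and -2.17. T87 stood far above every other array, 72.0-fold over seedlings (limma adjusted p = 8.26e-09).

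A few probes of the stretch were called lower in T87 callus, and these 7 were picked after their values were seen. A_84_P731608 (chr2:3378078-3378137) read -2.91, -2.90 and -3.08 in seedlings, then -1.68, -0.98 and -0.66 in 35S:WIND1 callus and -0.72, -1.60 and -1.10 in 2,4-D-induced callus. In T87 callus none of its arrays was well above background, at -7.00, -8.89 and -8.90, and the probe was at least 12.9-fold below seedlings (limma adjusted p = 6.13e-06), while it was 3.63-fold and 3.54-fold above seedlings in the other calli. Its neighbour A_84_P728031 (chr2:3376677-3376736, minus strand as named) was also not well above background in T87 callus (mean -8.64) or in seedlings (-6.80), and lay at -4.70 ± 0.55 and -4.88 ± 0.54 (SD, n = 3) in 35S:WIND1 and 2,4-D-induced callus, so its call between T87 callus and seedlings compares 2 groups near background. Next along the chromosome, A_84_P703493 and A_84_P739368, named on opposite strands of nearly the same bases (chr2:3379119-3379178 and chr2:3379131-3379190), rose in all 3 calli, in T87 callus by 2.21 and 2.33 on the log2 scale. A_84_P714117 (chr2:3276632-3276691) was lower than in seedlings in all 3 calli, at 0.89 ± 0.14 in seedlings and -0.81 ± 0.61, -0.55 ± 0.15 and -1.74 ± 0.40 in the calli. The remaining 4, A_84_P701580, A_84_P710569, A_84_P730164 and A_84_P737464, were 2.03-fold to 2.91-fold lower in T87 callus. With median centring, the falls of A_84_P714117 and of these 4 shrank to between -0.67 and -0.15 and were no longer called, nor was A_84_P728031, while A_84_P731608 stayed called. With quantiles A_84_P701580 lost its call at -0.51. With normexp only A_84_P714117 and A_84_P730164 of these falls stayed called, and A_84_P731608 lost its call at -1.72. A_84_P710569 also lost its call without seedling replicate 1, seedling replicate 2 or T87 callus replicate 1, and A_84_P737464 without seedling replicate 3 or T87 callus replicate 3, at changes of -1.1 to -0.97.

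Most AGI-named probes of a run of loci in the chromosome 2 pericentromere were also higher in T87 callus. In the gene order of assembly TAIR10.1, 46 loci from AT2G07771 to AT2G07741 had 47 AGI-named probes, a set chosen after values were seen, and whether they occupy the same interval as the position-named probes was not tested. Of these 47, 23 were higher and none lower than seedlings in 35S:WIND1 callus, where 12.1% of all probes tested were higher. In T87 callus 32 were higher and 3 lower, beside 20.2% of all probes higher. In 2,4-D-induced callus 25 were higher and 1 lower, beside 18.4% of all probes higher. Median changes were 1.02, 1.72 and 1.10 in the same order. The array had 4 probes of mitochondrial loci (ATMG codes), of which 2, 2 and 1 were higher and none lower. The single chloroplast locus probe (ATCG code) was lower in all 3 calli. Whether the calls of these AGI-named, mitochondrial and chloroplast probes hold with other scalings or with normexp was not tested. A probe cannot tell transcripts of the organelle from those of a near-identical nuclear copy, and the source of the signal was not tested.

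Outside the stretch, the pericentromere, taken as the 2.5 Mb on each side of an approximate centromere centre, had fewer detected probes than the arms: 204 of 1150 (17.7%) against 2040 of 7577 (26.9%). In T87 callus 60 of the 204 were higher than in seedlings and 40 lower (median change 0.33; 20.2% of all probes tested were higher and 26.1% lower), while in the arms 312 were higher and 514 lower (median -0.29). Within slides 1, 2 and 3 the pericentromeric median was 0.20, 0.30 and 0.29 and that of the arms -0.27, -0.26 and -0.22. In 35S:WIND1 callus 23 were higher and 24 lower in the pericentromere, and 192 and 362 in the arms, beside 12.1% and 18.9% of all probes. In 2,4-D-induced callus 44 and 33, and 355 and 444, were called, beside 18.4% and 23.6%. Medians in T87 callus were 1.20 and 0.57 with median centring and 0.96 and 0.47 with quantiles; with normexp both were below 0, at -0.41 and -0.56, and 8 were called higher and 1 lower of the 204.

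With the stretch included, the pericentromere held 287 (12.3%) of all detected probes, and its share varied among probes seen in 1 group alone. Well above background on all T87 arrays and on no other array were 47 probes, 14 of them (29.8%) pericentromeric. For 2,4-D-induced callus it was 4 of 17 (23.5%), for 35S:WIND1 callus 1 of 14, and for seedlings 2 of 61. Of the 236 probes lower than seedlings in all 3 calli (10.14%, beside 11.1% of all probes tested), 16 (6.78%) were pericentromeric. Of the 106 higher in all 3 calli (4.56%, beside 4.23% of all probes tested), 49 were, 40 of them in the stretch. The sets of 1 group alone rest on the detection that the rule used and are a description. They made up 2.62% of detected position-named probes for seedlings, 0.602% for 35S:WIND1, 2.02% for T87 and 0.731% for 2,4-D-induced callus. Among detected AGI-named probes these shares were 1.12%, 0.211%, 1.07% and 0.261%. Some probes were called in opposite directions in 2 calli against seedlings: 31 (1.33%) for 35S:WIND1 and T87 callus, beside 2.34% of all probes tested, 20 (0.859%) for 35S:WIND1 and 2,4-D-induced callus, beside 2.06%, and 38 (1.63%) for T87 and 2,4-D-induced callus, beside 3.06%.

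Several probes of chromosome 3 were higher in T87 callus than in seedlings. A_84_P312533 (chr3:15469988-15470230, pericentromere) read 1.87, 1.51 and 1.74 in T87 callus and lay between -8.84 and -7.42 on the 9 other arrays, none of them well above background. It was at least 274-fold above seedlings, 332-fold above 35S:WIND1 callus and 288-fold above 2,4-D-induced callus. This probe passed the rule through T87 callus alone, so these folds are a description. A_84_P19316 (chr3:11523671-11523730) read -2.66, -1.82 and -2.15 in T87 callus and -7.79 or less elsewhere, at least 18.1-fold above seedlings. Also in the pericentromere of chromosome 3, A_84_P731144 (chr3:15419665-15419724) and A_84_P159935 (chr3:15376267-15376326) rose in T87 callus. The first was not well above background in seedlings (mean -8.65) or 35S:WIND1 callus (-8.73), and reached -2.21 ± 0.39 in T87 callus, while 2,4-D-induced callus had 1.20 ± 0.16, 10.7-fold apart (limma adjusted p = 6.59e-07). The second was well above background on all seedling and 35S:WIND1 arrays and on 2 of 3 arrays of 2,4-D-induced callus. It stood at -0.21, -0.51 and -0.27 in T87 callus and was 29.9-fold above seedlings (limma adjusted p = 1.65e-05).

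A pair of pericentromeric probes of chromosome 3 shared a pattern of T87 first and 2,4-D second. A_84_P166343 (chr3:14788111-14788170) read 0.60, 0.36 and 0.70 in T87 callus, while 2,4-D-induced callus had -6.05, -5.22 and -5.66, and was not well above background in the other groups. A_84_P736161 (chr3:13881242-13881301) read 1.71, 1.68 and 1.92 against -3.59, -3.76 and -4.67. T87 callus was 73.3-fold and 54.8-fold above 2,4-D-induced callus (limma adjusted p = 1.43e-08 and 2.66e-06). On chromosome 4, A_84_P706709 (chr4:2077234-2077293) read 1.52, 0.76 and 1.00 in T87 callus against -5.52, -4.94 and -5.72 in seedlings, 89.6-fold apart (limma adjusted p = 0.000151). It was unsteady in 35S:WIND1 callus, at -8.80, -6.78 and -4.02 with 1 array well above background.

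At the top of chromosome 2, a region known for its array of ribosomal RNA genes, A_84_P726517 (chr2:2640-2699) read 0.80, 0.64 and 0.57 in seedlings, then 1.18, 1.24 and 1.07 in 35S:WIND1 callus, 5.51, 5.27 and 5.37 in T87 callus, while 2,4-D-induced callus had 0.52, 0.59 and 0.55. T87 callus stood far above the narrow range of the others, 26.2-fold over seedlings, 18.6-fold over 35S:WIND1 callus and 28.5-fold over 2,4-D-induced callus (limma adjusted p = 3.23e-09, 7.04e-09 and 4.03e-09).

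In 2,4-D-induced callus, A_84_P706379 (chr3:13021704-13021763) read -0.69, -0.69 and -1.15 and lay between -9.12 and -8.33 on all other arrays, at least 46.7-fold above seedlings. A_84_P700395 (chr3:889685-889744) read -1.03, -0.80 and -0.98 and A_84_P730369 (chr3:12643082-12643141) -1.63, -1.56 and -1.85, at least 43.7-fold and 26.2-fold above seedlings, and neither was well above background elsewhere. In 35S:WIND1 callus the brightest such probe was A_84_P705160 (chr1:3232234-3232293), at -4.43, -4.17 and -3.12, at least 5.58-fold above seedlings. Probes given here as seen in 1 group passed the rule through that group, so their folds are a description. The 35S:WIND1 set, with 14 probes, was the smallest of the 4, as it was among AGI-named probes, with 46. In seedlings the brightest was A_84_P703720 (chr5:15231365-15231424), at -2.81, -2.62 and -3.0, at least 14.5-fold, 14.3-fold and 12.6-fold above the 3 calli. A_84_P723688 and A_84_P739527 (chr5:8221622-8221681 and chr5:8222520-8222579), which lie within 1000 bases of each other, shared that pattern, with seedling means of -3.18 and -3.36 and no callus array well above background. With normexp the changes of A_84_P19316, of A_84_P731144 between the auxin calli, and of the 7 probes named as bright in 2,4-D-induced callus, 35S:WIND1 callus or seedlings alone kept their direction and were no longer called, while those of A_84_P312533, A_84_P159935, A_84_P166343, A_84_P736161 and A_84_P726517 were, as was A_84_P706709 in T87 callus.

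Other probes were measured in every group and changed strongly. A_84_P722311 (chr5:1590620-1590679) had the largest rise of 35S:WIND1 callus over seedlings among probes measured in both groups, and rose in all 3 calli. It read -2.78, -3.09 and -3.005 in seedlings, then 2.61, 0.79 and 1.67 in 35S:WIND1 callus, 1.98, 2.08 and 1.92 in T87 callus, while 2,4-D-induced callus had 0.60, 0.23 and 0.77. No callus array came near the seedlings, and the folds were 25.1, 30.9 and 11.3 (limma adjusted p = 6.68e-06, 1.49e-06 and 1.84e-05). Under the same limit, the probe with the widest drop in 2,4-D-induced callus was A_84_P723453 (chr5:10186377-10186436), at 4.60, 4.73 and 4.49 in seedlings, then 1.64, 2.03 and 1.96 in 35S:WIND1 callus, 3.04, 2.84 and 3.12 in T87 callus, while 2,4-D-induced callus had -3.73, -2.90 and -4.33. None of the groups overlapped, and 2,4-D-induced callus was 307-fold below seedlings (limma adjusted p = 2.47e-08).

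Levels of A_84_P740740 (chr5:17986282-17986341) separated 35S:WIND1 from 2,4-D-induced callus most, among probes measured in both. It read 0.41, 1.04 and 0.17 in seedlings, then 3.43, 3.49 and 4.53 in 35S:WIND1 callus, 1.15, 0.26 and 0.75 in T87 callus, while 2,4-D-induced callus had -4.04, -4.89 and -4.02. Seedlings and T87 callus overlapped, and 35S:WIND1 callus was 280-fold above 2,4-D-induced callus (limma adjusted p = 3.19e-07). A_84_P158965 (chr5:22170392-22170451) had the largest such fall in 35S:WIND1 callus, from -0.72, -0.46 and -0.60 in seedlings to -5.91, -4.70 and -4.71, with T87 callus at -1.15, -0.48 and -0.51 and 2,4-D-induced callus at -2.52, -2.64 and -3.74. It was 22.8-fold below seedlings and 21.0-fold below T87 callus (limma adjusted p = 1.26e-05 and 8.98e-06). A_84_P55850 (chr5:22478168-22478227) read 2.25, 3.04 and 3.92 in 35S:WIND1 callus and -2.76, -1.15 and -3.41 in T87 callus, 45.6-fold apart (limma adjusted p = 0.000419), and was well above background on 1 seedling array and on no array of 2,4-D-induced callus.

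The largest such fall in T87 callus was that of A_84_P11279 (chr5:26502760-26503161), from 0.24, 0.21 and 0.21 in seedlings to -4.60, -3.84 and -4.54, 23.4-fold (limma adjusted p = 1.02e-06). Its levels in 35S:WIND1 and 2,4-D-induced callus, -3.12 ± 0.23 and -1.62 ± 0.67, lay between. A_84_P16946 (chr5:26037246-26037305) and A_84_P20765 (chr1:12417220-12417362) were highest in 2,4-D-induced callus, at 0.11 ± 0.44 and 1.57 ± 0.24, and 32.0-fold and 14.7-fold above T87 callus. A_84_P58070 (chr1:18940092-18940151) was lowest there, at -4.42, -4.59 and -5.07 against 1.00, 1.33 and 0.96 in seedlings, 55.4-fold apart (limma adjusted p = 1.84e-08). At the other extreme, the 5 steadiest probes measured on all arrays differed little between groups. A_84_P710675 (chr1:20187982-20188041) had group means of -3.04, -3.06, -3.02 and -3.03.

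Neighbouring probes that were both called mostly changed in the same direction. Among detected probes, 198 pairs of neighbours on the same strand and 53 on opposite strands lay within 1000 bases, and 15 of the latter overlapped. In T87 callus against seedlings both probes were called in 79 same-strand pairs, in the same direction in 78, and in 19 opposite-strand pairs, in the same direction in 17. In 35S:WIND1 callus the counts were 50 of 51 and 16 of 18, and in 2,4-D-induced callus 61 of 62 and 13 of 14. Without the stretch, 61 of 61 same-strand and 6 of 7 opposite-strand pairs went the same way in T87 callus, 39 of 39 and 4 of 6 in 35S:WIND1 callus, and 56 of 56 and 3 of 4 in 2,4-D-induced callus. Over all pairs, called or not, same-strand neighbours had a median absolute difference of log2 changes of 0.32, 0.42 and 0.42 in 35S:WIND1, T87 and 2,4-D-induced callus. For opposite-strand pairs it was 0.45, 0.90 and 0.70, and without the stretch 0.71, 0.94 and 1.05. Pairs within a transcript are not independent, and strands are those written in the probe names.

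Joined over gaps of up to 5 kb, 858 of the 2327 probes fell into 348 groups of neighbours, 18 of them with 5 or more probes. The largest outside the stretch held 9 probes of chromosome 1 (chr1:23829989-23837503). Its 7 probes named on the plus strand lay between -7.05 and -2.65 in every group mean, and 1 of them was called lower in 35S:WIND1 callus and none in T87 or 2,4-D-induced callus against seedlings. Its minus-strand pair, A_84_P725714 and A_84_P722958, was brighter, at -0.53 ± 0.06 and 0.53 ± 0.08 in seedlings and 1.33 ± 0.31 and 1.60 ± 0.30 in 2,4-D-induced callus. Their log2 changes against seedlings were 1.86 and 1.07 in 2,4-D-induced callus, both called, and 0.34 to 0.98 in the other calli. Between calli, only A_84_P725714 was called, higher in 2,4-D-induced than in T87 callus by 2.33-fold (limma adjusted p = 0.000269).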

How the data were processed

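The deposited files give the intensity of each spot on a linear scale, per the file headers, and per the submitters' processing notes they came from Agilent Feature Extraction 9.1.3.1. The processed signal, background-subtracted by that software, was taken as log2, and the 75th percentile of an array's non-control spots was subtracted. Control and outlier spots were left out (30 values of 30 detected position-named probes, no named probe), and spots of a probe were averaged. No array was a copy of another. The authors' deposited series table is the natural log of the same signal minus 1 constant per group, as found by setting it against the scanner values; why is unknown, and it was used as an alternative only. The medians of its columns were, by replicate, -1.74, -2.08 and -1.81 (seedlings), -1.93, -1.56 and -2.02 (35S:WIND1), -2.52, -2.40 and -2.57 (T87) and -2.49, -2.70 and -2.34 (2,4-D-induced).

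All 12 arrays entered 1 fit in limma 3.58.1 (R 4.3.3; lmFit and eBayes, two-sided), with Benjamini-Hochberg adjustment over all 25598 probes that met the detection rule. The method was tested on simulated data. "At least N-fold" sets the brighter group against, per array of the dimmer group, the higher of the probe's own signal and the lowest signal well above background. Precision is limited by the number of arrays. Each of 3 slides held 1 array per group and replicate numbers equal slides. Deviations from group means correlated between arrays of the same number at 0.14, 0.15 and 0.12 for T87 and 2,4-D-induced callus. For other pairs of groups they ran from -0.11 to 0.11. Between arrays of different numbers they ran from -0.12 to -0.01 for T87 and 2,4-D-induced callus. For other pairs of groups these different-number values ran from -0.17 to 0.17. Values of this size thus also arose without a shared number, so the correlations do not show that the numbers pair the samples.

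The normexp alternative used the median spot signal. Named were, by rule, the largest rises and falls per comparison, the brightest probes of 1 group alone, the brightest and the steadiest over all arrays, the largest changes shared by the 3 calli, and the largest groups of neighbours; the text gives part of these, picked after their values were seen. The probes and lists were chosen with earlier results of these data known. A rule for probes inside genes was not applied, since the sources used here do not give the build.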

Additional observations from a re-analysis of the deposited data

Results flagged for a closer look

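Some position-named probes were called in opposite directions against seedlings in 2 calli, which fixes a difference of at least 4-fold between those calli. There were 31 such probes (1.33%) for 35S:WIND1 and T87 callus, fewer than the 2.34% of all probes tested. For 35S:WIND1 and 2,4-D-induced callus there were 20 (0.859%, beside 2.06%), and for T87 and 2,4-D-induced callus 38 (1.63%, beside 3.06%). Each share lay below that of all probes.

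For each pair of calli, the probe whose smaller change against seedlings was largest is given. A_84_P708405 (chr5:7380127-7380186) read -4.77, -4.49 and -4.79 in seedlings, -8.98, -8.74 and -8.97 in 35S:WIND1 callus, where it was not well above background, and -2.16, -2.70 and -2.41 in T87 callus. Its measured log2 difference between the calli, -6.47, rests on a group at background, and the bound is at least 19.0-fold lower in 35S:WIND1 than in T87 callus. A_84_P740740 differed by 8.13 between 35S:WIND1 and 2,4-D-induced callus and stood above background throughout both groups. A_84_P706709 read 9.58 higher on the log2 scale in T87 than in 2,4-D-induced callus, where none of its arrays was well above background, and the bound is at least 188-fold higher in T87 callus.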

How the results depend on the processing

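Normexp background correction with an offset of 50 left 27, 68 and 53 called position-named probes for 35S:WIND1, T87 and 2,4-D-induced callus against seedlings, and 56, 18 and 79 for 35S:WIND1 against T87, 35S:WIND1 against 2,4-D-induced and T87 against 2,4-D-induced callus. Among the 4 groups 143 of 2327 then differed, against 11083 of 21847 AGI-named probes. This setting changed the spot signal used, the background method and the added constant together, and which of them lowered the counts was not tested. AGI-named calls for 35S:WIND1 callus against seedlings fell from 2705 higher and 4251 lower to 1147 and 1629. For T87 callus they fell from 4535 and 5771 to 2409 and 2682, and for 2,4-D-induced callus from 4059 and 5270 to 1997 and 2652. Of 147 changes of named probes, 39 stayed called and 5 changed sign without being called: A_84_P712774 (-0.10) and A_84_P731990 (-0.22) in T87 callus, and A_84_P731990 (-0.031), A_84_P734169 (-0.085) and A_84_P734894 (-0.10) in 35S:WIND1 callus, all against seedlings. Requiring detection on all 12 arrays, which leaves 985 of the probes, gave 209, 316, 282, 228, 144 and 269 calls in the same order and 749 differing among the 4 groups. Leaving out 1 array at a time gave 592 to 733, 944 to 1016, 886 to 938, 685 to 757, 492 to 553 and 747 to 816. With the replicate block, which is also the slide block, the calls were 659, 1019, 928, 752, 539 and 805, and 1805 differed among the 4 groups; no count moved by over 1.5 times and no named change lost its call. Median centring, quantile normalization, the deposited values, no filter, the looser detection flag and no fold threshold kept each count within 1.5 times of the main one, though the first 3 moved the split of directions. Over all settings, 3009 of 3131 recomputed changes of named probes kept direction and side of the threshold. Many settings cannot move the size of a change, such as other filters, no fold threshold, or leaving out an array of neither group. Many named probes were also picked for large changes, so this total does not measure how steady the changes are. The detection share gave an exact permutation p of 0.910 with the looser flag and 0.239 to 0.988 leaving out 1 array at a time. Without the fold threshold 948, 1324 and 1257 were called against seedlings.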
